A study of Rattus norvegicus with 12 samples.

Results

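Interferon response genes were followed array by array in the kidney cortex of 12 rats, all males of the Sprague-Dawley strain. The set holds 38 genes, taken by symbol and matched to probes through each probe's RefSeq transcript. It is a named list of interferon-induced and interferon-signalling genes, whose rule uses no value of these arrays, though the list was chosen with earlier results of these data known. A probe was matched for 34 of the 38, and none was matched for Rigi, Xaf1, Herc6 and Zbp1. The brightest probe stood for each gene, and 33 genes entered the test, among 11689 tested genes with a symbol and 29603 tested features in all. Ifit1 was left out of the test because it was well above background on 3 arrays only.

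The rats were 5 weeks old when bought, and 6 of them received tert-butyl alcohol (TBA) at 1000 mg/kg/day for 4 weeks while the other 6 received water. TBA is an industrial solvent, also formed in the body from the petrol additives MTBE and ETBE, and the kidney of male rats is a known target of it. All rats were bled out 24 h after the last dose, under isoflurane or under a CO2-O2 mixture. This gave 4 groups of 3 rats, called here TBA isoflurane, vehicle isoflurane, TBA CO2-O2 and vehicle CO2-O2. Each rat had 1 one-colour Agilent array, on which 61.6% to 71.0% of probes were well above background. Markers of the labelled tissue were present: 8 of 8 proximal tubule genes, 3 of 3 podocyte genes and 5 of 5 endothelial genes were well above background on 12 arrays, as were 1 of 2 thick ascending limb genes (the other had no probe) and 1 of 2 distal convoluted tubule genes (Pvalb was never so). In bulk tissue, fewer cells of a type and less RNA per cell cannot be told apart.

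Interferons are cytokines released on sensing of viruses or other danger signals, and tubular, endothelial and immune cells of the kidney can all respond to them. Type I interferons act through the JAK kinases and a complex that holds STAT2 and IRF9 and binds the interferon-stimulated response element (ISRE) before its target genes. Interferon gamma acts mainly through another site, the gamma-activated site (GAS). The induced genes include antiviral effectors, the ISG15 conjugation system, sensors of foreign RNA, immunoproteasome subunits and chemokines, and several of them feed back on the pathway.

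The promoters are shown first, to compare members that were highest in one rat, described below, with members that were not. A RefSeq window from 250 bases before to 50 bases after the start (assembly GRCr8) was held for 30 of the 38 members. The ISRE core, searched as GAAANNGAAA on one strand and TTTCNNTTTC on the other, was found in 20 of 30 member windows (66.7%), against 3.92% of 33469 rat promoter windows. The GAS core, TTCNNNGAA, which reads the same on both strands and can share bases with the ISRE core, was found in 7 of 30 (23.3%), against 8.87% of all windows. Of 25 ISRE core matches in members, 16 began within 100 bases before the start. Mx2, Rigi, Zbp1, Isg15, Dhx58, Usp18, Ifit1 and Ifit2 had no entry.

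The following 60-base stretches are shown with the ISRE core in capitals, 5′ to 3′ on the gene's strand. The first 8 genes had their highest value of 12 in the same rat, TBA isoflurane rat 2.
Irf7: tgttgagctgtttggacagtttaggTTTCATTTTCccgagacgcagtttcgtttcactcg
Ifit3: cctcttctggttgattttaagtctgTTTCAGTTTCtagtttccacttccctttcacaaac
Oas1a: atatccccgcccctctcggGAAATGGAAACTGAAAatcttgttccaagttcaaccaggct
Rsad2: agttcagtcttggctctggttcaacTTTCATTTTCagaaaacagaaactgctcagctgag
Bst2: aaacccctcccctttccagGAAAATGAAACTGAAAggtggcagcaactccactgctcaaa
Gbp2: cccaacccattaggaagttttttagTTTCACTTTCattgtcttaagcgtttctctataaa
Tap1: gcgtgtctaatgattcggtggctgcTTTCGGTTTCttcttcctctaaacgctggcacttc
Cxcl10: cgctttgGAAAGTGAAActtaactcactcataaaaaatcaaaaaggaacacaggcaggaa
Oas1b: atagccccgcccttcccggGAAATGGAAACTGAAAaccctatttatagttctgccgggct
Ifih1: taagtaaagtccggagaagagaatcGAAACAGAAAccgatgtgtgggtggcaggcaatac
Nmi: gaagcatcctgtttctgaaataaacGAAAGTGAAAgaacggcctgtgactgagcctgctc

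These stretches lie at chr1:205800058-205800117 (minus strand) for Irf7, chr1:241527257-241527316 (plus) for Ifit3, chr12:41330406-41330465 (plus) for Oas1a and chr6:48788233-48788292 (minus) for Rsad2. Those of Bst2, Gbp2, Tap1 and Cxcl10 lie at chr16:18255058-18255117 (minus), chr2:234005671-234005730 (plus), chr20:4668630-4668689 (minus) and chr14:15988816-15988875 (plus). The last 3, whose genes were highest in other rats, lie at chr12:41395871-41395930 (minus) for Oas1b, chr3:67683993-67684052 (minus) for Ifih1 and chr3:56848609-56848668 (minus) for Nmi. In Oas1a, Oas1b and Bst2 the capitals cover 2 overlapping cores. Among tested members with a window, the core was found in 15 of 23 that were highest in TBA isoflurane rat 2 and in 4 of 5 that were highest elsewhere. Oas1a and Oas1b carry the same tandem pair of cores at nearly the same place, and their probe signals across the 12 rats differed, as given below.

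No member passed the test for TBA under either anesthetic. Signals are given as log2 of the processed intensity minus the array's 75th percentile, so that 0 is that percentile, and a log2 change is a difference of group means on this scale. With limma and Benjamini-Hochberg adjustment over 29603 features, 0 of 33 members were called at an adjusted p under 0.05 under isoflurane, where 0.395% of all features were called, and 0 of 33 under CO2-O2, where 0.149% were called. At an unadjusted p under 0.05 under isoflurane, 2 members were higher and 1 lower with TBA, against 17.8% of features in either direction. Under CO2-O2, 1 was higher and 1 lower, against 14.3% of features.

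Under isoflurane the member genes nevertheless lay to one side. The log2 change with TBA was above 0 for 30 of 33 members with a median of 0.34, beside a median of 0.02 over all features, and the lowest adjusted p (limma) was 0.16. Under CO2-O2 it was above 0 for 11 of 33 with a median of -0.07, again beside 0.02 over all features, and the lowest adjusted p (limma) was 0.28. That median turned to 0.13 without TBA CO2-O2 rat 1, and to 0.24 with a fixed term for slide or for scan day, a fit that rests on 1 TBA array. Averaged over both anesthetics, 28 of 33 members were above 0 with a median of 0.15, and limma called 0 of 33 where 1.88% of features were called. At an unadjusted p under 0.05, 1 member was higher and 1 lower there, against 19.0% of features. The TBA effect under isoflurane minus that under CO2-O2 had a median of 0.40 over the members, with 28 of 33 above 0, and limma called 0 of 33 members and 0% of features. Adding a fixed scan day term gave a median of 0.05, in a fit whose CO2-O2 part rests on TBA CO2-O2 rat 3 alone. Leaving out TBA isoflurane rat 2 gave 0.17. At an unadjusted p under 0.05 that interaction had 3 members above 0 and none below, against 12.1% of features.

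The values per rat showed that 1 animal held most of this shift. TBA isoflurane rat 2, singled out after its values were seen, had the highest of 12 values for 27 of the 33 tested members, whereas 11.7% of all features were highest there. The median deviation of the members from their own 12-array means was 0.79 on that array, and it lay between -0.43 and 0.23 on the other 11. The other 6 members, Mx2, Oas1b, Ifih1, Ifi44, Trim25 and Nmi, were highest in other rats. Without that rat, the median log2 change under isoflurane was 0.05, with 23 of 33 members above 0.

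**Figure D1:**
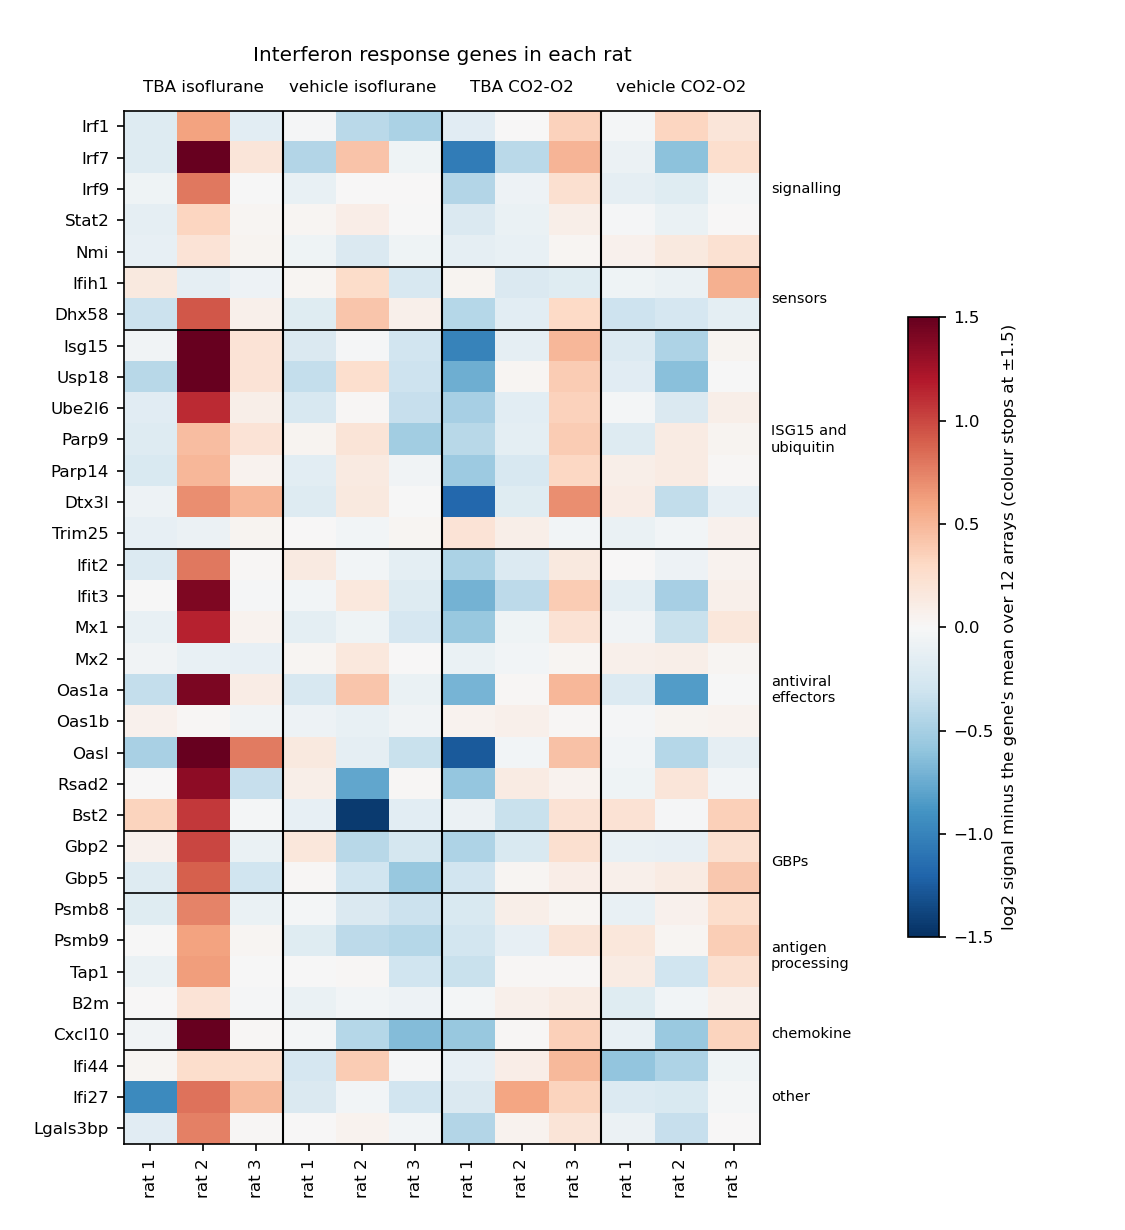
Signal of the 33 tested members in each of 12 rats, as log2 signal minus the gene's own mean over the 12 arrays, with rows grouped by role and columns by treatment and anesthetic. TBA isoflurane rat 2 is the one column in which 27 of 33 members reach their highest value, and TBA CO2-O2 rat 1 holds the lowest value of 16.

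**Figure D2:**
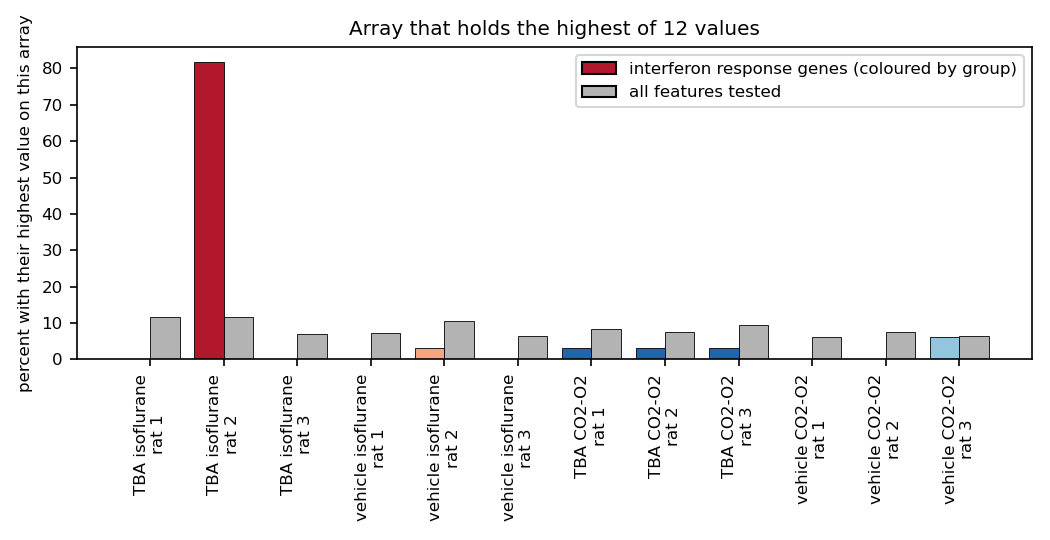
Percent of the 33 tested members (coloured bars) and of all features (grey bars) whose highest of 12 values lies on each array. All features spread between 6.3% and 11.7% per array, while 27 of the 33 members lie in TBA isoflurane rat 2.

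The transducers and transcription factors of the pathway were among these genes. Irf7, the factor that amplifies type I interferon production, had log2 signals of 1.27, 2.96 and 1.65 in TBA isoflurane rats 1 to 3, against 1.03, 1.90 and 1.40 in vehicle isoflurane rats. Irf7 stood at 0.42, 1.06 and 1.98 in TBA CO2-O2 rats, against 1.38, 0.85 and 1.72 in vehicle CO2-O2 rats. The groups overlapped under both gases, and rat 2 of the TBA isoflurane group lay 0.98 above the next array. The log2 change of Irf7 with TBA under isoflurane was 0.52 ± 0.49 (SE, n = 3 and 3, limma adjusted p = 0.629), and 0.02 without that rat.

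Irf9, the DNA-binding subunit of the complex that binds the ISRE, read -1.59, -0.73 and -1.53 in TBA isoflurane rats, against -1.63, -1.51 and -1.51 in vehicle isoflurane rats. Irf9 read -1.96, -1.60 and -1.28 in TBA CO2-O2 rats, against -1.66, -1.70 and -1.55 in vehicle CO2-O2 rats. Apart from TBA isoflurane rat 2, no group of rats lay clear of another for this gene. Stat2, its partner, read 2.02, 2.48 and 2.18 in TBA isoflurane rats, against 2.19, 2.25 and 2.15 in vehicle isoflurane rats. In TBA CO2-O2 rats Stat2 read 1.94, 2.06 and 2.24, against 2.14, 2.05 and 2.16 in vehicle CO2-O2 rats. Stat2 spanned 0.54 over the 12 arrays, with its highest value again in TBA isoflurane rat 2. A dimmer probe of Stat2 was highest in vehicle isoflurane rat 2. It deviated there by 0.31 from its own mean, against 0.22 in TBA isoflurane rat 2.

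Irf1, a factor induced chiefly by interferon gamma, read 1.70, 2.49 and 1.73 in TBA isoflurane rats, against 1.87, 1.49 and 1.42 in vehicle isoflurane rats. Irf1 read 1.72, 1.90 and 2.24 in TBA CO2-O2 rats, against 1.86, 2.21 and 2.07 in vehicle CO2-O2 rats. Its highest value exceeded the next by 0.25, so its rat 2 stood out less than that of Irf7. Nmi, which binds STAT proteins, was the one member whose TBA CO2-O2 rats all lay below the vehicle CO2-O2 rats, at 0.29 to 0.45 against 0.49 to 0.66. This 1 of 33 stands against 9.06% of features that did not overlap downwards there, and 11.9% did so upwards. The log2 change of Nmi was -0.22 ± 0.09 (SE, n = 3 and 3, limma adjusted p = 0.325).

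Of the sensors of foreign nucleic acid, Ifih1 (MDA5) and Dhx58 (LGP2) had probes that were tested. Ifih1 read -3.25, -3.53 and -3.47 in TBA isoflurane rats, against -3.37, -3.12 and -3.64 in vehicle isoflurane rats. In TBA CO2-O2 rats Ifih1 read -3.36, -3.61 and -3.58, against -3.46, -3.50 and -2.86 in vehicle CO2-O2 rats. Ifih1 thus read low in TBA isoflurane rat 2, and its highest value was in vehicle CO2-O2 rat 3. Dhx58 was highest in TBA isoflurane rat 2, at -1.02, which was 0.52 above the next array.

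The ISG15 system gave some of the widest separations. Isg15, a ubiquitin-like protein attached to other proteins, read 0.75, 2.42 and 1.00 in TBA isoflurane rats, against 0.58, 0.78 and 0.51 in vehicle isoflurane rats. Isg15 read -0.20, 0.66 and 1.30 in TBA CO2-O2 rats, against 0.59, 0.34 and 0.84 in vehicle CO2-O2 rats. TBA isoflurane rat 2 was 6.14-fold above the lowest array, TBA CO2-O2 rat 1, on the linear scale, and the 3 rats of each TBA group spread over more than the vehicle rats did. The log2 change under isoflurane was 0.77 ± 0.45 (SE, n = 3 and 3, limma adjusted p = 0.404), and 0.25 without TBA isoflurane rat 2. Under CO2-O2 it was 0.00 ± 0.45 (SE, n = 3 and 3, limma adjusted p = 1.0).

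Usp18, the protease that removes ISG15 and also dampens the type I receptor, read -2.35, -0.19 and -1.73 in TBA isoflurane rats, against -2.29, -1.69 and -2.25 in vehicle isoflurane rats. Usp18 read -2.67, -1.91 and -1.56 in TBA CO2-O2 rats, against -2.11, -2.56 and -1.95 in vehicle CO2-O2 rats. Its gap of 1.36 between TBA isoflurane rat 2 and the next array was the widest of all members, and of all 11679 genes with a symbol on that array. The log2 change under isoflurane was 0.65 ± 0.49 (SE, n = 3 and 3, limma adjusted p = 0.529), and 0.04 without that rat. Ube2l6, the conjugating enzyme of ISG15, read 0.06 in TBA isoflurane rat 2 and -1.56 to -0.72 in the other 11 rats. Parp9, Dtx3l and Parp14, an ADP-ribosylation group that works with the pathway, were also highest in that rat, by gaps of 0.09, 0.01 and 0.19. A dimmer Dtx3l probe, well above background on 11 arrays, was highest in TBA CO2-O2 rat 3. It deviated there by 0.73 from its own mean, against 0.35 in TBA isoflurane rat 2. Trim25, the ubiquitin ligase that acts on the RNA sensor RIG-I, spanned 0.33 over the 12 arrays and was highest in TBA CO2-O2 rat 1.

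**Figure D3:**
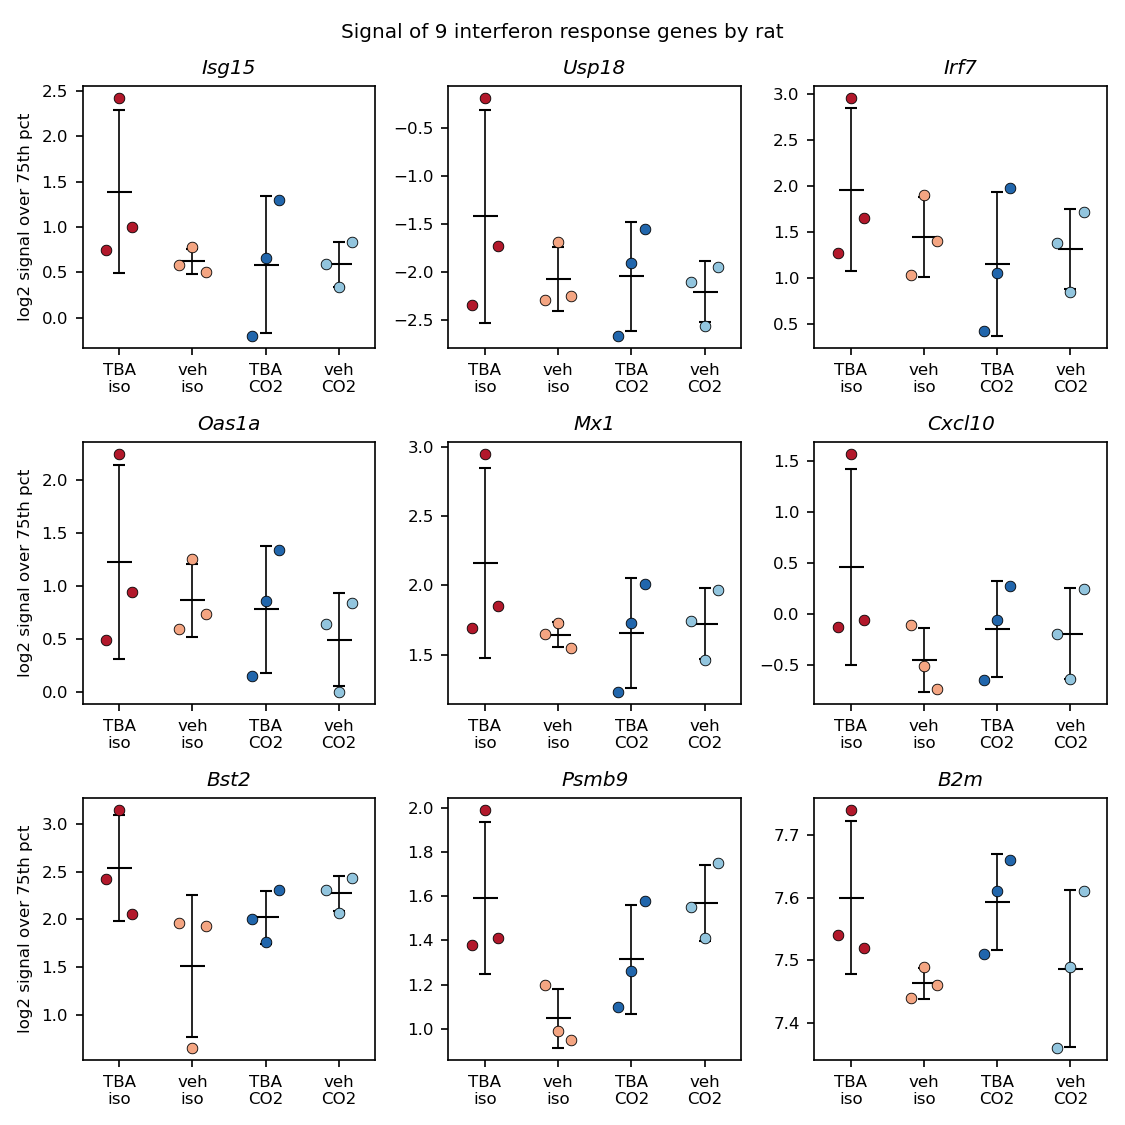
Log2 signal of 9 members in each rat, with the group mean (long bar) and SD (whiskers) of 3 rats per group, each gene on its own axis. In Isg15, Usp18, Irf7, Oas1a, Mx1 and Cxcl10, TBA isoflurane rat 2 lies far above the other 2 of its group. In Psmb9, B2m and Bst2 all 3 TBA isoflurane rats lie above the vehicle isoflurane rats, and rat 2 is again the highest.

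The antiviral effectors split into a larger group that was highest in TBA isoflurane rat 2 (7 of 9 tested) and a pair, Mx2 and Oas1b, whose brightest probe was not. Mx1, a GTPase that blocks viral replication, read 1.69, 2.95 and 1.85 in TBA isoflurane rats, against 1.65, 1.73 and 1.55 in vehicle isoflurane rats. Mx1 read 1.23, 1.73 and 2.01 in TBA CO2-O2 rats, against 1.74, 1.46 and 1.97 in vehicle CO2-O2 rats. Outside TBA isoflurane rat 2 all values lay within 1.23 and 2.01, with both ends in the TBA CO2-O2 group.

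Oas1a, which makes the oligoadenylates that activate RNase L, read 0.49, 2.25 and 0.95 in TBA isoflurane rats, against 0.60, 1.26 and 0.74 in vehicle isoflurane rats. Oas1a read 0.15, 0.86 and 1.34 in TBA CO2-O2 rats, against 0.64, 0.00 and 0.84 in vehicle CO2-O2 rats. Its 12 values covered a 4.75-fold range on the linear scale. Oas1b, the neighbour with the same tandem ISRE cores and known in mouse for flavivirus resistance, read 5.81, 5.76 and 5.69 in TBA isoflurane rats, against 5.67, 5.63 and 5.69 in vehicle isoflurane rats. Oas1b read 5.80, 5.82 and 5.76 in TBA CO2-O2 rats, against 5.73, 5.79 and 5.80 in vehicle CO2-O2 rats. Its range was 1.14-fold on the linear scale, and its pooled SD within groups stood at percentile 1.16 of all features, where that of Oas1a stood at percentile 96.2. Oas1b was read by 1 probe only, so this flat signal could not be set beside another probe of the gene.

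Mx2 behaved in 2 ways, depending on the probe. Its bright probe read 6.11, 6.05 and 6.03 in TBA isoflurane rats, against 6.19, 6.32 and 6.16 in vehicle isoflurane rats, and it was 1 of 33 members whose TBA rats all lay below the vehicle rats under isoflurane, where 9.69% of features did so. The same probe read 6.06, 6.12 and 6.19 in TBA CO2-O2 rats, against 6.23, 6.25 and 6.19 in vehicle CO2-O2 rats. The log2 change of this probe was -0.16 ± 0.06 under isoflurane (SE, n = 3 and 3, limma adjusted p = 0.218). The dimmer probe of Mx2 deviated by 1.55 from its own mean in TBA isoflurane rat 2, its highest array, and by -0.91 to 0.32 elsewhere.

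Ifit2 and Ifit3 encode proteins that bind viral RNA and restrain its translation. Ifit3 read -2.54, -1.13 and -2.55 in TBA isoflurane rats, against -2.57, -2.37 and -2.72 in vehicle isoflurane rats. Ifit3 read -3.24, -2.92 and -2.15 in TBA CO2-O2 rats, against -2.67, -3.03 and -2.45 in vehicle CO2-O2 rats. A single value of the 12, that of TBA isoflurane rat 2, lay above -2.15. Ifit2 read -1.84, -0.85 and -1.62 in TBA isoflurane rats, against -1.50, -1.68 and -1.79 in vehicle isoflurane rats. In TBA CO2-O2 rats Ifit2 read -2.11, -1.85 and -1.49, against -1.64, -1.72 and -1.59 in vehicle CO2-O2 rats. Ifit1 was well above background on 3 arrays of different groups and has no fold here. Its measured log2 signals, on most arrays at or below background, were -5.45, -4.42 and -6.12 in TBA isoflurane rats, against -8.08, -5.92 and -7.97 in vehicle isoflurane rats. They were -8.16, -8.17 and -4.47 in TBA CO2-O2 rats, against -5.98, -6.85 and -4.85 in vehicle CO2-O2 rats.

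Oasl, an OAS-like protein that supports RNA sensing, was well above background on 10 arrays. Oasl read -5.41, -3.42 and -4.14 in TBA isoflurane rats, against -4.77, -5.06 and -5.25 in vehicle isoflurane rats. Oasl read -6.18, -4.96 and -4.48 in TBA CO2-O2 rats, against -4.96, -5.35 and -5.06 in vehicle CO2-O2 rats. TBA CO2-O2 rat 1 and TBA isoflurane rat 1 were not well above background, so no linear range is given, and TBA isoflurane rat 2 lay 0.72 above the next array. Rsad2 (viperin) makes a nucleotide that stops viral polymerases, and read 0.76, 2.10 and 0.41 in TBA isoflurane rats, against 0.84, -0.03 and 0.77 in vehicle isoflurane rats. Rsad2 read 0.17, 0.88 and 0.81 in TBA CO2-O2 rats, against 0.69, 0.93 and 0.71 in vehicle CO2-O2 rats. Its gap between TBA isoflurane rat 2 and the next array was 1.17.

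Bst2 (tetherin), which holds budding virus at the cell surface, was the member with the largest log2 change under isoflurane, 1.03 ± 0.36 (SE, n = 3 and 3, limma adjusted p = 0.183). Bst2 read 2.42, 3.15 and 2.06 in TBA isoflurane rats, against 1.96, 0.65 and 1.93 in vehicle isoflurane rats. Bst2 read 2.00, 1.76 and 2.31 in TBA CO2-O2 rats, against 2.31, 2.07 and 2.44 in vehicle CO2-O2 rats. The isoflurane groups did not overlap, and each held 1 rat far from its other 2, upwards with TBA and downwards with vehicle. The log2 change was 0.73 without TBA isoflurane rat 2 and lay between 0.60 and 1.27 over all single rats left out.

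Bst2, Psmb9, B2m and Oas1b were the 4 of 33 members whose TBA isoflurane rats all lay above the vehicle isoflurane rats, against 14.3% of all features that did so. For Oas1b the groups met at 5.69 and are separated only beyond the second decimal.

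The guanylate binding proteins, GTPases of cell-autonomous defence, followed the same rat. Gbp2 read 1.03, 1.97 and 0.86 in TBA isoflurane rats, against 1.13, 0.55 and 0.70 in vehicle isoflurane rats. Gbp2 read 0.50, 0.73 and 1.20 in TBA CO2-O2 rats, against 0.85, 0.84 and 1.21 in vehicle CO2-O2 rats. Gbp5 read -2.13, -1.04 and -2.24 in TBA isoflurane rats, against -1.92, -2.24 and -2.51 in vehicle isoflurane rats. In both genes 1 TBA isoflurane rat lay above all 11 others and its 2 group mates lay among the vehicle rats. Gbp5 read -2.23, -1.91 and -1.84 in TBA CO2-O2 rats, against -1.87, -1.82 and -1.54 in vehicle CO2-O2 rats.

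Antigen processing genes had a median deviation of 0.62 over 4 genes in that rat, and 2 of the 4 also had separated groups under isoflurane. Psmb9, a catalytic subunit of the immunoproteasome, read 1.38, 1.99 and 1.41 in TBA isoflurane rats, against 1.20, 0.99 and 0.95 in vehicle isoflurane rats. Psmb9 read 1.10, 1.26 and 1.58 in TBA CO2-O2 rats, against 1.55, 1.41 and 1.75 in vehicle CO2-O2 rats. All 3 TBA isoflurane rats were above all 3 vehicle isoflurane rats, while under CO2-O2 the groups overlapped with the TBA rats lower on average. The log2 change was 0.55 ± 0.18 under isoflurane (SE, n = 3 and 3, limma adjusted p = 0.16) and 0.35 without TBA isoflurane rat 2. Its interaction of TBA with the anesthetic was 0.81 ± 0.25 (SE, limma adjusted p = 0.296).

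B2m, the light chain of class I molecules, read 7.54, 7.74 and 7.52 in TBA isoflurane rats, against 7.44, 7.49 and 7.46 in vehicle isoflurane rats. B2m read 7.51, 7.61 and 7.66 in TBA CO2-O2 rats, against 7.36, 7.49 and 7.61 in vehicle CO2-O2 rats. The separation under isoflurane was narrow, with a log2 change of 0.13 ± 0.08 (SE, n = 3 and 3, limma adjusted p = 0.436). Psmb8, the second immunoproteasome subunit measured, read 0.66, 1.59 and 0.75 in TBA isoflurane rats, against 0.82, 0.63 and 0.52 in vehicle isoflurane rats. In TBA CO2-O2 rats Psmb8 read 0.62, 0.93 and 0.88, against 0.73, 0.91 and 1.11 in vehicle CO2-O2 rats. Unlike Psmb9, its isoflurane groups overlapped. Tap1, which carries peptides into the endoplasmic reticulum, read -1.79, -1.06 and -1.70 in TBA isoflurane rats, against -1.70, -1.68 and -1.99 in vehicle isoflurane rats. Tap1 read -2.03, -1.67 and -1.68 in TBA CO2-O2 rats, against -1.57, -1.99 and -1.45 in vehicle CO2-O2 rats. Tap1 and Psmb9 are neighbours whose 2 windows overlap by 44 bases.

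Cxcl10, the chemokine that draws CXCR3-bearing T and NK cells, read -0.13, 1.57 and -0.06 in TBA isoflurane rats, against -0.11, -0.51 and -0.73 in vehicle isoflurane rats. Cxcl10 read -0.65, -0.06 and 0.28 in TBA CO2-O2 rats, against -0.19, -0.64 and 0.25 in vehicle CO2-O2 rats. TBA isoflurane rat 2 was 1.29 above the next array, and the isoflurane groups overlapped at their edge. The log2 change under isoflurane was 0.91 ± 0.44 (SE, n = 3 and 3, limma adjusted p = 0.319), and 0.36 without that rat.

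Of the remaining interferon-induced genes, Ifi27 varied differently. Ifi27, a small mitochondrial protein, read 4.04, 5.80 and 5.46 in TBA isoflurane rats, against 4.77, 4.95 and 4.70 in vehicle isoflurane rats. Ifi27 read 4.77, 5.58 and 5.32 in TBA CO2-O2 rats, against 4.78, 4.76 and 4.96 in vehicle CO2-O2 rats. In each TBA group 2 of 3 rats lay above every vehicle rat, and TBA isoflurane rat 1 held the lowest of all 12 values. Ifi44 had a log2 change of 0.53 ± 0.20 with TBA under CO2-O2 (SE, n = 3 and 3, limma adjusted p = 0.28), the lowest adjusted p of the members in that comparison. A dimmer Ifi44 probe deviated by -0.24, -0.16 and 0.41 from its own mean in TBA CO2-O2 rats. It deviated by -0.19, -0.37 and 0.11 in vehicle CO2-O2 rats. The dimmest Ifi44 probe deviated by -0.04, 0.09 and 0.44 in TBA CO2-O2 rats, against -0.60, -0.53 and -0.07 in vehicle CO2-O2 rats. The size of the change thus differed by probe. Lgals3bp, a secreted glycoprotein, was highest in TBA isoflurane rat 2 at 3.22 and read 2.03 to 2.66 in the other 11.

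**Figure D4:**
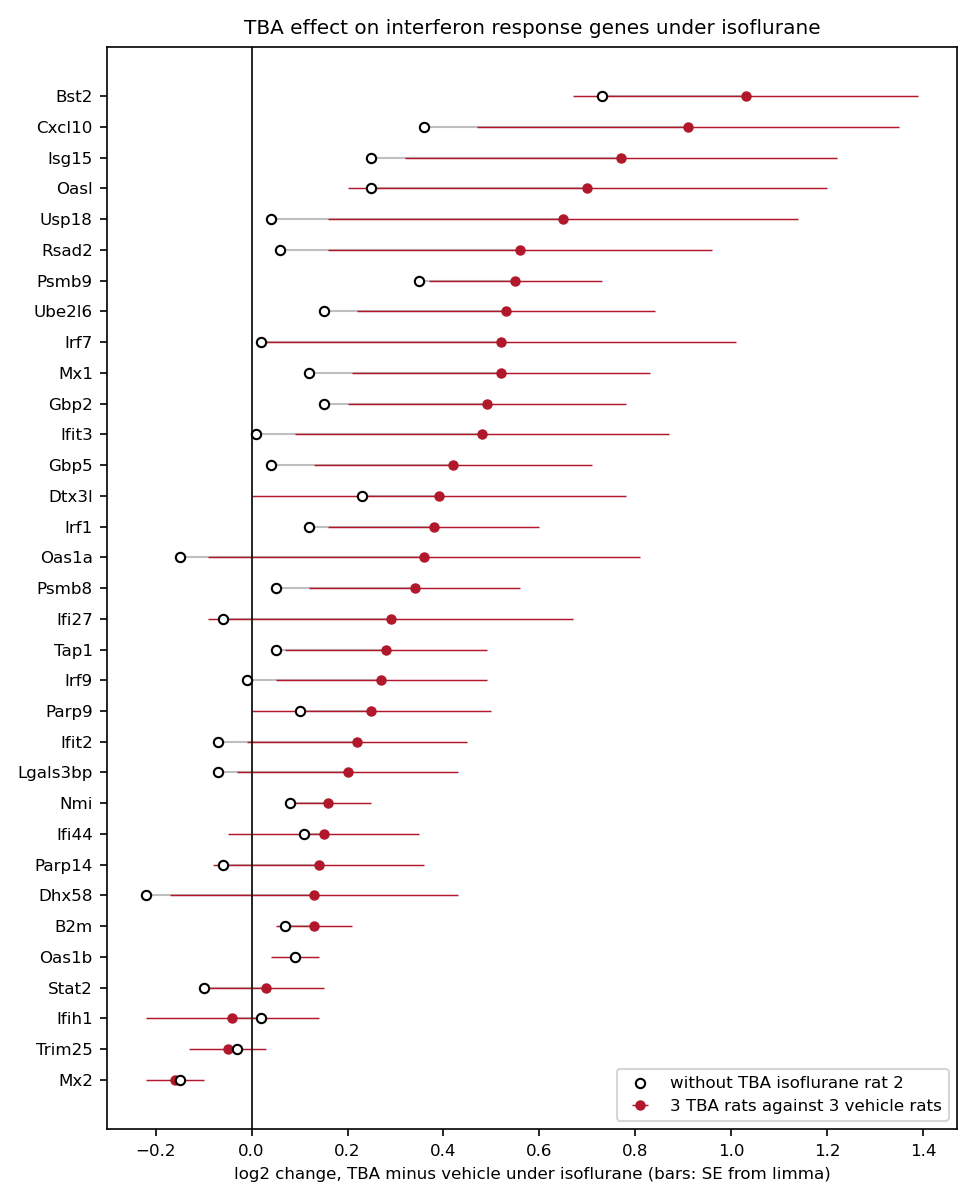
Log2 change of each of 33 members, TBA minus vehicle under isoflurane, with all 3 TBA rats (filled, bars are the SE from limma) and without TBA isoflurane rat 2 (open). The median is 0.05 without that rat, against 0.34 with it, and Bst2, Cxcl10 and Psmb9 keep the largest open values (0.73, 0.36 and 0.35).

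Other arrays were ordered too, with smaller distances. TBA CO2-O2 rat 1 held the lowest value of 16 of 33 members, against 8.39% of all features. With TBA isoflurane rat 2 set aside, TBA CO2-O2 rat 3 was the highest of the other 11 arrays for 17 of 33 members. No share of all features is given beside that count. Without TBA CO2-O2 rat 1 the member median under CO2-O2 was 0.13, against -0.07 with it. The pooled SD within groups had a median of 0.335 over the members and 0.152 over all features, and 27 of 33 members were above the latter value. Without the TBA isoflurane group the medians were 0.268 and 0.147, so the wider spread of the members was also measured in the other 3 groups. These SDs are a description of the members and no test was made of them.

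The anesthetic comparison gave no call either. Isoflurane minus CO2-O2 in TBA rats had a median log2 change of 0.28 over the members, with 29 of 33 above 0, and limma called 0 of 33 where 0.00676% of features were called. At an unadjusted p under 0.05 no member was counted there, against 10.8% of features, and no member's groups were free of overlap, against 15.1%. Without TBA isoflurane rat 2 that median was 0.05, and without TBA CO2-O2 rat 1 it was 0.16. The TBA isoflurane rats shared no slide with the TBA CO2-O2 rats, so slide and anesthetic cannot be told apart there. In vehicle rats the median was -0.03, with 14 of 33 above 0, and limma called 0 of 33 where 0.105% of features were called. Slide or scan day as a fixed term turned that median to 0.41. The vehicle groups shared no slide or scan day, so both cannot be told apart from the anesthetic there. The 0.41 thus rests on TBA CO2-O2 rat 3 against TBA CO2-O2 rats 1 and 2, the group split over both slides. At an unadjusted p under 0.05 in the vehicle rats, 2 members were lower and none higher, against 18.7% of features.

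In vehicle rats, 5 of 33 members were lower in every isoflurane rat than in every CO2-O2 rat, namely Bst2, Psmb9, Gbp5, Nmi and Oas1b, and 14.2% of all features were so. No member was higher in that way, against 14.9% of features. Slide and scan day cannot be told apart from the anesthetic in these counts either. Psmb9 had a log2 change of -0.52 ± 0.18 (SE, n = 3 and 3, limma adjusted p = 0.175), and Bst2 one of -0.76 ± 0.36 (SE, n = 3 and 3, limma adjusted p = 0.294). The TBA isoflurane rats, at 1.38 to 1.99 for Psmb9, overlapped the vehicle CO2-O2 rats at 1.41 to 1.75.

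Further genes of the pathway outside the set were examined for the same rat. Of 82 such genes 56 were tested, and limma called 0 of them in any comparison. At an unadjusted p under 0.05 under isoflurane 6 were higher and 1 lower, against 17.8% of features in either direction. In TBA isoflurane rat 2, 23 of 56 were highest, against 11.7% of all features. The share was uneven by role, since 19 of 32 further induced genes were highest there, against 0 of 4 receptor genes, 0 of 4 inhibitors and 3 of 11 upstream sensing genes. The ligands Ifnb1, Ifng and Ifnk had probes that did not pass the filter on low signals. Ifna4, of a family of closely similar genes that 1 probe may not tell apart, was the ligand tested, and read -2.39, -2.59 and -2.39 in TBA isoflurane rats, against -2.69, -2.73 and -2.54 in vehicle isoflurane rats. Its log2 change was 0.20 ± 0.08 (SE, n = 3 and 3, limma adjusted p = 0.216), and 0.18 ± 0.05 averaged over both anesthetics (SE, limma adjusted p = 0.124). The unadjusted p (limma) was 0.0266 under isoflurane and 0.00865 for the average, where 17.8% and 19.0% of features were under 0.05. The isoflurane groups of Ifna4 overlapped, and TBA isoflurane rat 2 had the lowest value of its group. Ifnar1, a chain of the type I receptor, read -1.71, -1.68 and -1.54 in TBA isoflurane rats, against -1.36, -1.62 and -1.33 in vehicle isoflurane rats. The receptor chain was thus not highest in TBA isoflurane rat 2.

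Of the pathway and cell type genes outside the set, Slc5a12, a lactate transporter of the proximal tubule, was the one called. It rose with TBA under CO2-O2, to 2.45, 2.43 and 2.45 in TBA CO2-O2 rats, against 1.58, 1.64 and 1.70 in vehicle CO2-O2 rats, a log2 change of 0.80 ± 0.12 (SE, n = 3 and 3, limma adjusted p = 0.0421). It was also called for TBA averaged over both anesthetics, at 0.68 ± 0.08 (SE, limma adjusted p = 0.00986). The same gene read 1.97, 2.25 and 2.04 in TBA isoflurane rats, against 1.79, 1.28 and 1.54 in vehicle isoflurane rats. The 6 with the largest fitted change among those with separated groups were Cd163, Tor3a, Mzb1, Cd79b, Tlr3 and S100a8, and 3 of them were dim.

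Cd163, a macrophage receptor, read -5.60, -4.11 and -4.86 in TBA CO2-O2 rats, against -7.43, -6.74 and -6.26 in vehicle CO2-O2 rats, none of which was well above background. It was at least 1.97-fold higher in TBA CO2-O2 rats, against the higher of each dim array's detection floor and measured value (limma adjusted p = 0.171). Cd163 read -5.88, -6.47 and -5.85 in TBA isoflurane rats, none well above background, against -7.16, -5.18 and -5.69 in vehicle isoflurane rats, 1 of 3 well above background. Cd79b, a B cell receptor chain, was not well above background in any vehicle isoflurane rat (-6.06, -6.40 and -6.75), against -5.46, -5.27 and -5.29 in vehicle CO2-O2 rats. This is at least 1.32-fold lower under isoflurane (limma adjusted p = 0.312). It read -5.66, -5.89 and -7.11 in TBA isoflurane rats, against -7.34, -5.18 and -5.57 in TBA CO2-O2 rats, with 0 and 1 of 3 well above background. Mzb1, a plasma cell gene, read -5.99, -5.99 and -5.91 in vehicle isoflurane rats, with 1 of 3 well above background, against -4.75, -4.71 and -5.22 in vehicle CO2-O2 rats. Mzb1 read -5.57, -6.09 and -5.93 in TBA isoflurane rats, against -5.01, -5.96 and -5.84 in TBA CO2-O2 rats, with 0 and 1 of 3 well above background. No fold is given for Mzb1, whose limma adjusted p was 0.0904 in vehicle rats.

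The other 3 were brighter. Tor3a, an interferon-inducible ATPase, read -2.92, -2.53 and -2.59 in TBA isoflurane rats, against -4.86, -3.04 and -3.70 in TBA CO2-O2 rats, a log2 change of 1.19 ± 0.38 (SE, n = 3 and 3, limma adjusted p = 0.316). It read -2.67, -3.14 and -2.85 in vehicle isoflurane rats, against -3.57, -2.91 and -3.24 in vehicle CO2-O2 rats. Tlr3, a sensor of double-stranded RNA, read 0.01, 0.61 and 0.35 in TBA isoflurane rats, against 1.51, 1.59 and 0.99 in TBA CO2-O2 rats, a log2 change of -1.04 ± 0.36 (SE, n = 3 and 3, limma adjusted p = 0.336). Tor3a and Tlr3 thus lay in opposite directions in the same comparison. Tlr3 read 0.25, 1.57 and 0.73 in vehicle isoflurane rats, against 0.35, 1.32 and 0.48 in vehicle CO2-O2 rats. S100a8, a neutrophil gene, read -4.50, -4.35 and -5.01 in vehicle isoflurane rats, against -4.16, -3.91 and -2.95 in vehicle CO2-O2 rats, a log2 change of -0.95 ± 0.37 (SE, n = 3 and 3, limma adjusted p = 0.221). It read -4.32, -3.79 and -4.95 in TBA isoflurane rats, against -3.25, -3.87 and -3.16 in TBA CO2-O2 rats. None of these 6 was called by limma.

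Leukocyte markers were set beside the interferon genes, since immune cells also express these genes. Of 48 markers 40 had a probe and 35 were tested. None of the 40 was below background on all 12 arrays. Of the 35, 13 were highest in TBA isoflurane rat 2 and 13 in vehicle CO2-O2 rat 3, with median deviations of 0.20 and 0.36 on these arrays, where the interferon genes deviated by 0.79 and 0.05. Of all features, 11.7% and 6.43% were highest on these arrays. The leukocyte median log2 change with TBA was 0.12 under isoflurane and -0.08 under CO2-O2, and limma called 0 of 35 in either. At an unadjusted p under 0.05 there were 0 and 2 of 35, against 17.8% and 14.3% of all features. The leukocyte median for isoflurane minus CO2-O2 in vehicle rats was -0.34, with 28 of 35 below 0.

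By cell type the summed linear signal, in multiples of the array's 75th percentile, ran from 86.3 to 137 for 12 macrophage and monocyte markers in TBA isoflurane rats, against 83.7 to 119 in vehicle isoflurane rats. It ran from 116 to 130 in TBA CO2-O2 rats, against 98.7 to 143 in vehicle CO2-O2 rats. For 10 T and NK cell markers the sums were 2.01 to 3.14 in TBA isoflurane rats and 1.98 to 2.52 in vehicle isoflurane rats, and 2.40 to 2.90 in TBA CO2-O2 rats and 2.17 to 3.17 in vehicle CO2-O2 rats. The upper ends in the TBA isoflurane group, 137 and 3.14, were those of rat 2. By median deviation, the 12 macrophage and monocyte markers stood at 0.40 in that rat, the highest of 12 arrays for this list, with 7 of 12 genes highest there, against 0.20 and 4 in vehicle CO2-O2 rat 3. Of the 10 T and NK cell markers 4 were highest in that rat (Nkg7, Gzmb, Prf1 and Klrd1) and 4 in vehicle CO2-O2 rat 3 (Cd3e, Cd3d, Cd3g and Cd8b). The cytotoxic genes Gzmb and Prf1 read highest in that rat, at -2.65 and -0.86, against -5.68 to -3.77 and -3.06 to -1.56 in the other 11. The part of leukocytes in the interferon signal of that rat was not tested.

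**Figure D5:**
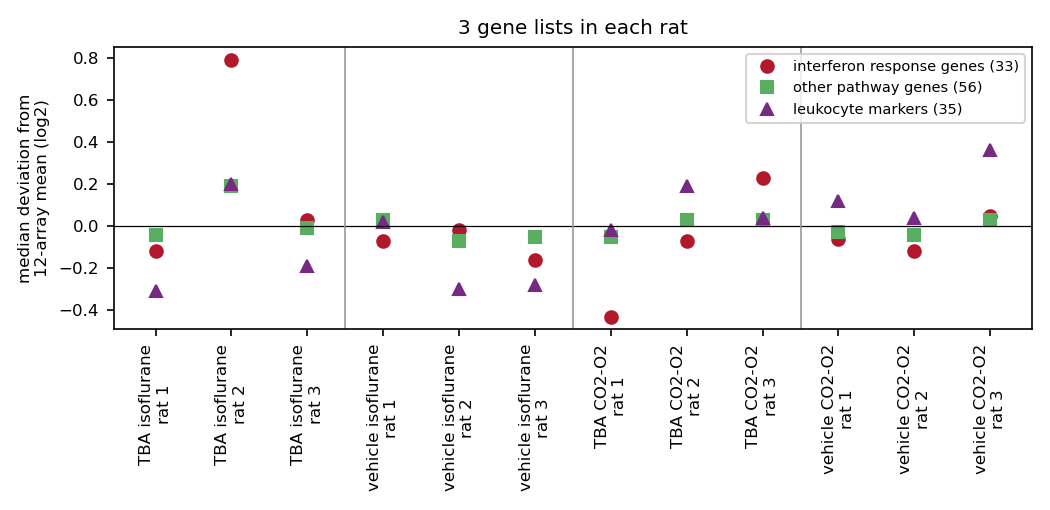
Median deviation from the 12-array mean of 3 gene lists in each rat, on the log2 scale: 33 interferon response genes, 56 other pathway genes and 35 leukocyte markers. The interferon genes reach 0.79 in TBA isoflurane rat 2, where leukocyte markers reach 0.20, and leukocyte markers reach 0.36 in vehicle CO2-O2 rat 3, where interferon genes stand at 0.05.

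Probe and array values bear on the measurement itself. Of 55 member probes well above background on 12 arrays, 47 were highest in TBA isoflurane rat 2. Of 15 members with more than 1 such probe, 12 had all of them highest there. The other 3, Mx2, Stat2 and Ifi44, had only some of them highest there. That array had 64.3% of probes well above background and 0 flagged spots, against 61.6% to 71.0% and 1 to 9 on the other arrays. The TBA isoflurane rats were alone on their slide, so slide and group cannot be told apart in the isoflurane comparison. The 3 rats on that slide had median deviations of -0.12, 0.79 and 0.03. TBA CO2-O2 rat 3, on the slide of the vehicle CO2-O2 rats, deviated by 0.23, and TBA CO2-O2 rats 1 and 2, on that of the vehicle isoflurane rats, by -0.43 and -0.07. Vehicle rats of either anesthetic were on separate slides and scan days, which cannot be told apart from the anesthetic for any gene compared there.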

How the data were processed

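Renal cortex RNA of 12 rats was measured on 12 one-colour Agilent arrays, grouped by the labels' treatment and anesthetic. The deposited intensity of each spot came from Agilent Feature Extraction 10.7, per the submitters' processing notes, and was background-subtracted and detrended within arrays, per the file headers. The submitters' deposited series table holds a ratio of that intensity to each array's 75th percentile, a scale found from the values. Its columns each matched another replicate's scanner file within the group, and rats are numbered by the scanner files. Processed intensity was scaled to the 75th percentile and taken to log2 from the deposited values. Probes were kept (40216 of 61657) where all 3 arrays of some group read well above background, and the brightest probe stood for a gene. Of all probes, 27460 had 1 symbol through their RefSeq transcript and 34197 had none. limma 3.58.1 in R 4.3.3 fitted the 4 groups together (8 residual degrees of freedom), with Benjamini-Hochberg adjustment over 29603 features. The fit was tested on simulated data. The members and gene lists were chosen with earlier results of these data known. Named with values in every rat were 25 preset members with a probe, members with separated groups and a log2 change of at least 0.5, called genes of the other lists, and up to 6 of those with the largest fitted change and separated groups. Genes outside this rule (Dhx58, Nmi, Ifi44, Parp9, Dtx3l, Parp14, Trim25, Ube2l6, Lgals3bp, Ifna4, Ifnar1, named leukocyte markers and those of the closing section) were chosen after their values were seen. Alternatives covered scaling, background, filter, probe choice, slide, scan day, replicate block and leaving out each rat. The number of arrays limits the precision. Some genes are not reported here. Replicates are separate animals, per the labels.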

Additional observations from a re-analysis of the deposited data

How the results depend on the processing

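Limma called 0 members in all 6 comparisons under nearly every alternative run. The exception was quantile normalization, which called 1 member, Mx2, for TBA averaged over both anesthetics (limma adjusted p = 0.0276, where the lowest member adjusted p ran from 0.0276 to 0.332 over the alternatives). The member median under CO2-O2 was 0.24 both with slide as a fixed term and with scan day as a fixed term, against -0.07, and those fits rest on 1 TBA array that shares a slide with vehicle CO2-O2 arrays. The same terms gave 0.41 for isoflurane minus CO2-O2 in vehicle rats, against -0.03, though the vehicle groups shared no slide or scan day. Scan day as a fixed term gave 0.05 for the interaction, against 0.40, and its CO2-O2 part rests on that same TBA array. These shifts rest on TBA CO2-O2 rat 3 against TBA CO2-O2 rats 1 and 2, the group split over both scan days. Whether scan day itself acts on the members was not tested. Slide as a fixed term could not be fitted for the isoflurane comparison, whose TBA rats had a slide of their own. Under isoflurane the TBA median lay between 0.31 and 0.38 over the settings that kept all rats. With 1 rat left out at a time, the median ran from 0.05 to 0.52 under isoflurane (0.05 without TBA isoflurane rat 2), from -0.23 to 0.13 under CO2-O2 (0.13 without TBA CO2-O2 rat 1), from 0.02 to 0.23 for the averaged effect and from 0.17 to 0.59 for the interaction. It ran from 0.05 to 0.50 for isoflurane in TBA rats and from -0.08 to 0.04 in vehicle rats, and the count of called members stayed at 0 in each. TBA isoflurane rat 2 held the highest value of 26 to 28 members under the other scalings, background and probe choices, with median deviations of 0.72 to 0.79. A replicate block cannot move a group difference in this balanced layout, so the member medians stayed at 0.34 under isoflurane and -0.07 under CO2-O2. With that block no call changed. The same-numbered rats correlated between -0.13 and 0.13, with 3 of 18 pairs over 0.1 and 5 of 12 arrays best matched to their own number, so the numbers were not taken as pairs. Dim probes such as those of Oasl and Ifit1 were limited by their signal over background.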

Other observations

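The genes that stood out in TBA isoflurane rat 2 were not all members of the interferon set. With a gap to the next array of over 0.5 on the log2 scale, a threshold chosen after the values were seen, 53 of 11679 genes with a symbol (0.454%) were highest in that rat, and 17 of them were members. On the other 11 arrays the same count ran from 8 to 84 genes, with 0 members on each. The 3 widest gaps among the 36 others were those of Htra4 (1.29), Oas1i (1.23) and Gzmb (1.12). The 36 also held Cmpk2 (0.98), Oas1k (0.97), Hk3 (0.94), Ifi27l2b (0.92), Slfn4 (0.89), Ccl12 (0.88), C8h3orf18 (0.79), Siglec1 (0.78), Pax6 (0.73), Fcgr3a (0.73) and Atp7a (0.73). At gaps of 0.70 to 0.59 they held Prf1, Bcl2a1, Trim6, Apol7b, Socs2, Ccl4, Cntnap4, Atf3, Slamf9, Gzmc and C2. At gaps of 0.58 to 0.51 they held Mnda, Apol9a, Oasl2, Mis18a, Lst1, Krtap10-2, Gzma, Lgals9, Ifi47, Apob and Lmod2. No list was fixed for these genes and no test was made of what they share.

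Cmpk2, the kinase gene next to Rsad2 in mammalian genomes, read -0.18, 1.10 and -0.01 in TBA isoflurane rats, against 0.12, -0.27 and 0.00 in vehicle isoflurane rats. Lgals9, a galectin induced by interferon, read -1.57, -0.37 and -1.08 in TBA isoflurane rats, against -1.13, -1.08 and -1.24 in vehicle isoflurane rats. Tapbp, which tethers class I molecules to the peptide transporter, showed another pattern, at 0.61, 0.60 and 0.52 in TBA isoflurane rats, against 0.17, -0.46 and 0.14 in vehicle isoflurane rats. Its log2 change was 0.63 ± 0.15 (SE, n = 3 and 3, limma adjusted p = 0.0911), and vehicle isoflurane rat 2 lay apart from the other 2 vehicle rats. Cxcl11, a second CXCR3 ligand, read 0.17, 0.56 and 0.30 in TBA CO2-O2 rats, against -0.84, -0.46 and -0.22 in vehicle CO2-O2 rats, and had a log2 change of 0.85 ± 0.27 there (SE, n = 3 and 3, limma adjusted p = 0.217). Socs3, an inhibitor of JAK signalling, had one of 0.76 ± 0.15 in the same comparison (SE, n = 3 and 3, limma adjusted p = 0.0982).

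In the submitters' deposited table the 27 members highest in 1 rat were found under the column labelled TBA isoflurane replicate 3, which matches the scanner file of replicate 2.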
